A study of Mus musculus with 2 samples.

Results

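The genes described here are 36 genes of S phase and DNA replication, taken as a fixed list of symbols. All 36 symbols were found once among the 31053 genes of the deposited feature tables, and all 36 are annotated as protein-coding. They were read in 2 single-cell RNA-seq libraries of mouse dental pulp, which is the living tissue in the core of a tooth and carries its vessels and nerves. The first is labelled control and the other Vegfr2 knockout, a deletion in endothelial cells, and both come from C57BL/6 mice at postnatal day 12. Vegfr2, listed as Kdr, encodes the receptor through which VEGF signals to endothelial cells. In both, the pulp was dissociated with enzymes and live cells, which exclude propidium iodide, were sorted for 10x 3' libraries. The genotype of the control mice beyond the word control, the driver of the deletion, its timing, and the number of animals behind each library are not given in the sources used here. Each genotype had 1 library, so no difference below has a replicate check, no test was made, and every interval is an exact 95% interval that covers counting error only.

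DNA replication is licensed when the origin recognition complex, CDC6 and CDT1 load the MCM2-7 ring onto origins in G1. In S phase, CDC45 and the GINS complex turn that ring into an active helicase, DNA polymerase alpha with its primase lays primers, and the PCNA clamp holds the later polymerases on the template. Nucleotides, new histones and repair factors are made at the same time, and many of these genes are switched on by E2F transcription factors when cells pass from G1 into S phase. In a tooth that is still growing, their transcripts are read as a sign of cells that are copying their DNA.

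The members are spread over 17 chromosomes, and what they share outside their function is seen best in their promoters. RefSeq promoter windows (GRCm38.p6) were at hand for 28 of the 36. The 250 bases before the start were searched on both strands for 4 E2F-type strings, TTTCCCGC, TTTCGCGC, TTTGCCGC and TTTGGCGC, and for CCAAT, the letters bound by NF-Y. Neither kind of string contains the other. At least 1 E2F-type string lay before the start of 10 of the 28 members (35.7%), against 583 of 27025 genes (2.16%) and 1 of 31 genes of a list for G2 and mitosis (3.23%). CCAAT was found before 19 of the 28 members (67.9%), against 37.5% of all genes and 74.2% of the G2 and mitosis list. The E2F-type letters were thus frequent before S phase genes and rare before mitotic genes, whereas CCAAT was frequent before both. A match is a description of the letters and not evidence of binding, and the other 18 members may hold variants that were not searched. The stretches below are shown because they carry those letters in members whose values follow, and Casp8ap2 is shown because it has the letters but little difference between the libraries. Each runs 5′ to 3′ on the strand of its gene, with the E2F-type letters of either strand in capitals and overlapping matches joined. Mcm5 is at chr8:75109316-75109407 (+), Mcm6 at chr1:128359706-128359855 (−), Pola1 at chrX:93632246-93632333 (−), Cdca7 at chr2:72476108-72476158 (+), Dtl at chr1:191575545-191575592 (−) and Casp8ap2 at chr4:32615254-32615341 (+). All 6 stretches lie upstream of the annotated start and hold no annotated exon.
Mcm5: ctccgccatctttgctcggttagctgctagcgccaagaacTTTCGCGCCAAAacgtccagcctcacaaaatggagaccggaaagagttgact
Mcm6: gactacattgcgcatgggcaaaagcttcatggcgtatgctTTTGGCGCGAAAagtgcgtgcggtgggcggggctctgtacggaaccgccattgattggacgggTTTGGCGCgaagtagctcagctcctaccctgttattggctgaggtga
Pola1: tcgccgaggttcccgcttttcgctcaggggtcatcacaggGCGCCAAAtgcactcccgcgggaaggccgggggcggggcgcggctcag
Cdca7: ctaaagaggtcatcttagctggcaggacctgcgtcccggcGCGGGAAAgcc
Dtl: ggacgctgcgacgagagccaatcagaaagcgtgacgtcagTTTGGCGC
Casp8ap2: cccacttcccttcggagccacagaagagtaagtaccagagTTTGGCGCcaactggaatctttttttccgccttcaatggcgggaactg

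The filters left 2311 cells of the control and 1668 of the knockout library, whose median depths were 12203 and 8273 UMIs (unique molecular identifiers, counts of captured transcripts). The control library was the deeper one in each of the 6 classes described in full below, and 2 kept barcodes occurred in both libraries. In the smaller neutrophil-like and B-like groups the knockout was deeper, with medians of 5759 and 6374.5 and of 5629.5 and 6625.5 UMIs in control and knockout. The share of assignable cells with Y-linked transcripts was 16.1% in the control and 34.0% in the knockout library, so the sexes were mixed in different proportions. Cells were put into classes by marker genes that are no members, and a class is written with "-like" because it rests on transcripts alone. Both libraries had 50 or more cells in 6 classes, which were endothelial-like (402 control and 139 knockout cells), mural-like, the pericytes and smooth muscle of vessel walls (255 and 154), mesenchyme-like (571 and 359), glia-like, mostly Schwann cells (448 and 384), macrophage or monocyte-like (196 and 157) and dendritic-like (71 and 66). Each was led by its own markers, with between 2 and 6 of them among its 10 leading genes and 0 of another class. This follows from the gate, which chose the cells by those markers, and is no separate check of the classes. No cells were gated as odontoblasts, the dentin-forming cells that line the pulp. Levels are given as CPM, the UMIs of a gene or list divided by all UMIs of the class and multiplied by 1000000. Kdr itself stood at 1055 CPM in control and 651 CPM in knockout endothelial-like cells. These 3' tags do not show whether a part of the gene elsewhere is deleted, so they do not check the genotype.

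Summed over the 36 members, S phase transcripts were lower in the knockout library in each of the 6 classes, and the gap was widest in glia-like, endothelial-like and mural-like cells. The sum was 1149 CPM in control and 503 CPM in knockout endothelial-like cells, a knockout over control ratio of 0.438 (0.400 to 0.478). Glia-like cells held 1119 and 473 CPM, a ratio of 0.423 (0.400 to 0.446), and mural-like cells 932 and 444 CPM, a ratio of 0.477 (0.434 to 0.522). The counting intervals of these 3 ratios overlap one another, so counting alone does not set them in an order. Mesenchyme-like cells held 830.1 and 569.7 CPM (ratio 0.686, 0.650 to 0.724), and macrophage or monocyte-like cells 1043 and 771 CPM (0.739, 0.687 to 0.795). Dendritic-like cells had the highest levels in both libraries, 1618 and 1314 CPM, and the ratio nearest to 1 of the 6 (0.812, 0.759 to 0.868). Outside these classes the summed ratio was 1.01 in neutrophil-like cells (37 and 56 cells), 0.966 in B-like cells (32 and 30 cells) and 0.915 in the ungated cells (296 and 310 cells). In B-like cells it was 1.98 with each cell weighted equally.

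**Figure D1:**
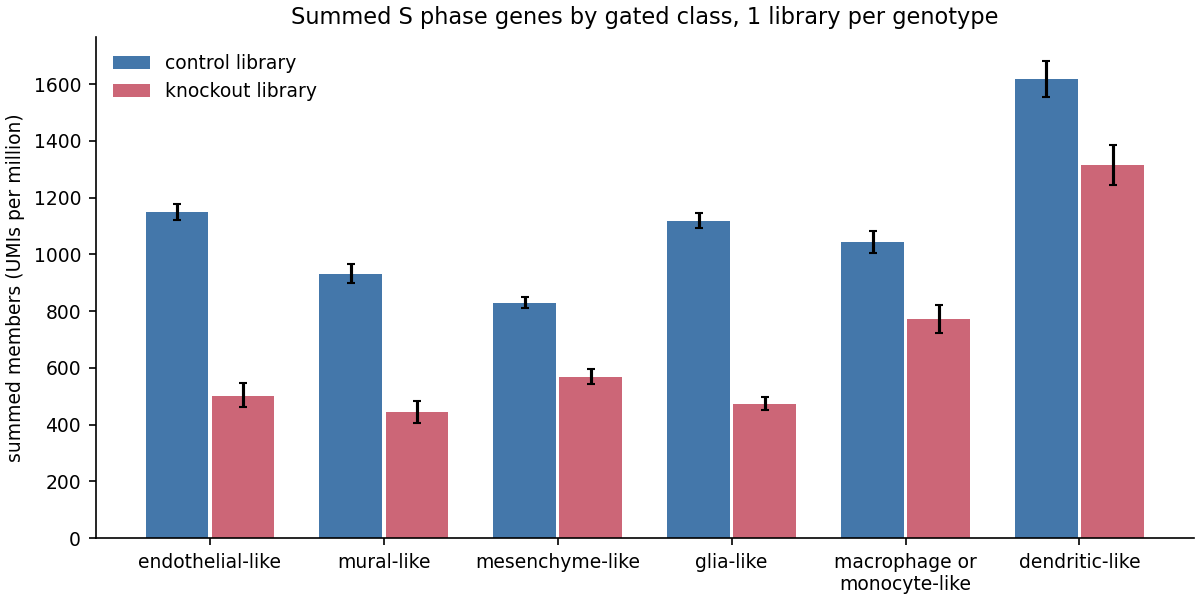
Summed UMIs of the 36 members as CPM of the class (vertical axis, from 0) in each gated class, with the control library in blue and the knockout library in red; bars are 1 library each and error bars are exact 95% Poisson intervals. The knockout bar is the lower of the pair in all 6 classes, and the smallest relative gap is in dendritic-like cells (1618 and 1314 CPM).

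Gene by gene, a member was compared where both libraries together held 20 UMIs or more of it in the class, and was called where it differed by at least 1.5-fold. In endothelial-like cells all 36 were compared, 35 were called lower and 0 higher, against 15.0% of all compared genes called lower and 11.9% called higher. The median log2 ratio of the members was -1.62 there, or -1.29 with the 3 members at 0 knockout UMIs set to a floor of 3 counts over the class, beside -0.02 for all genes. The endothelial-like cells of the control library held 5215581 UMIs and those of the knockout library 1051990, so a gene mostly entered the comparison through its control counts, and the share of all genes was taken under the same entry rule. Of the 33 members compared in mural-like cells 30 were called lower and 0 higher (all genes 12% and 11.2%, median of the members -1.24). Glia-like cells had 33 of 36 called lower and 0 higher (all genes 9.63% and 9.91%, median -1.51). In mesenchyme-like cells 27 of 36 were called lower and 1 higher (all genes 13.4% and 11.2%, median -1.08). Calls were fewer in the myeloid classes, with 13 of 34 lower and 0 higher in macrophage or monocyte-like cells (all genes 11.1% and 11.8%, median -0.45). The 9 of 35 members called lower in dendritic-like cells, with 0 higher, stood closest to the background of 18.9% lower and 9.59% higher, and their median of -0.25 was close to that of all genes (-0.15). Counting intervals lay wholly below 1 for 30, 24, 26, 34, 10 and 7 members in endothelial-like, mural-like, mesenchyme-like, glia-like, macrophage or monocyte-like and dendritic-like cells, and wholly above 1 for 1 member, Slbp in mesenchyme-like cells.

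**Figure D2:**
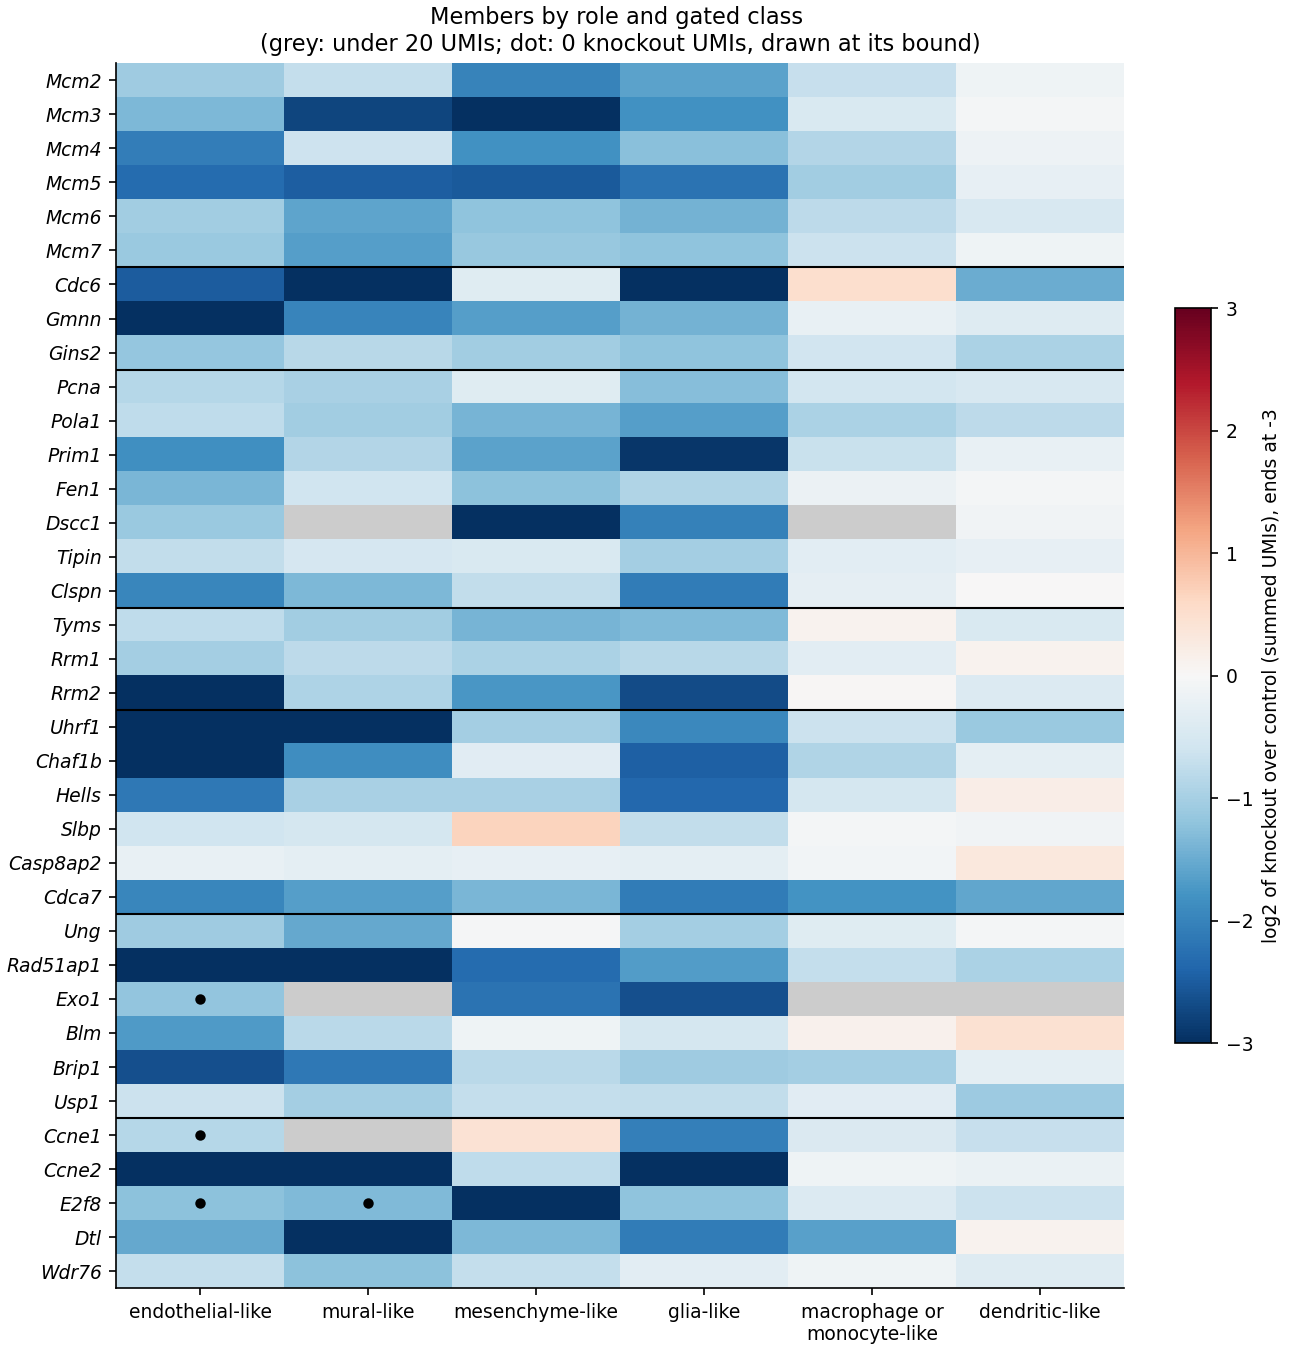
Log2 ratio of knockout over control summed UMIs for each member (rows, in blocks by role) in each gated class (columns), in a colour scale that ends at -3 and 3; grey marks under 20 UMIs, and a dot marks a member with 0 knockout UMIs, drawn at the value of the 3-count floor. The first 4 columns are blue for nearly all rows, Casp8ap2 is pale across the row, and Slbp is red in the mesenchyme-like column.

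The MCM helicase ring, 6 related ATPases that unwind the template, was lower as a block. Its sum was 232 CPM in control and 90.3 CPM in knockout endothelial-like cells, 196 and 69.5 CPM in mural-like, 132 and 42.0 CPM in mesenchyme-like and 209 and 75.2 CPM in glia-like cells. All 6 subunits were called lower in each of those 4 classes, and 5 of 6 in macrophage or monocyte-like cells, where the sum was 255 and 157 CPM. With each cell weighted equally 4 of 6 were called in endothelial-like, 5 in mural-like, and 6 in mesenchyme-like and glia-like cells, and Mcm7 in endothelial-like cells stood at 0.776. None was called in dendritic-like cells, at 413 and 362 CPM (ratio 0.876, 0.768 to 0.999). Mcm5 had 148 control and 6 knockout UMIs in endothelial-like cells, a ratio of 0.201 (0.0726 to 0.448), and 143 and 18 UMIs in glia-like cells, a ratio of 0.216 (0.124 to 0.353). Its ratio was 0.180 in mural-like and 0.173 in mesenchyme-like cells, so the subunit was similarly low in these 4 classes. Mcm3 varied more between the classes, from 0.105 (0.0417 to 0.222) in mesenchyme-like cells, with 173 and 7 UMIs, and 0.148 in mural-like cells to 0.396 in endothelial-like and 0.954 in dendritic-like cells. Mcm7, the subunit with the most UMIs of the ring, had 385 and 98 UMIs in glia-like cells, a ratio of 0.436 (0.346 to 0.546), and ratios of 0.465 in endothelial-like and 0.458 in mesenchyme-like cells.

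Licensing and helicase activation were represented by Cdc6, which loads the ring, Gmnn, which encodes geminin, the inhibitor of CDT1 that prevents a second round of licensing, and Gins2, a subunit of the active helicase. Gmnn had 157 control and 3 knockout UMIs in endothelial-like cells (30.1 and 2.85 CPM), a ratio of 0.0947 (0.0193 to 0.282). In the other classes the same gene was less far apart, at 0.254 in mural-like, 0.319 in mesenchyme-like, 0.372 in glia-like, 0.767 in dendritic-like and 0.856 in macrophage or monocyte-like cells. Cdc6 was sparse, with 28 and 1 UMIs in endothelial-like cells and 36 and 2 in glia-like cells, where the ratio was 0.0952 (0.0111 to 0.370). It was the member with the highest ratio in macrophage or monocyte-like cells, 22 and 15 UMIs, but the interval of that ratio ran from 0.689 to 2.88. Gins2 was called lower in 5 of 6 classes, with ratios between 0.432 in glia-like and 0.670 in macrophage or monocyte-like cells, the latter just short of the call.

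At the fork, Pcna, the sliding clamp, was the member of this role with the most UMIs. It stood at 75.4 CPM in control and 41.8 CPM in knockout endothelial-like cells, and at 71.9 and 29.6 CPM in glia-like cells, where its ratio was 0.411 (0.328 to 0.511). Its interval lay below 1 in all 6 classes, although only 3 passed 1.5-fold, and in mesenchyme-like cells it held 431 and 128 UMIs at a ratio of 0.773. Pola1, the catalytic subunit of polymerase alpha, was called lower in all 6 classes, from 0.319 (0.221 to 0.448) in glia-like cells to 0.586 (0.318 to 1.00) in endothelial-like cells, where it was 1.02 by equal cell weight. Its primase partner Prim1 was far lower in glia-like cells, 143 and 11 UMIs or 24.0 and 3.16 CPM, a ratio of 0.132 (0.0643 to 0.243). Clspn, the checkpoint mediator claspin, had 191 and 26 UMIs there (0.233, 0.149 to 0.352) and 153 and 8 UMIs in endothelial-like cells (0.259, 0.110 to 0.524). Tipin, a fork protection factor, was among the steadier members, between 0.493 in glia-like and 0.843 in dendritic-like cells. Fen1, the flap nuclease that trims Okazaki fragments, ranged from 0.385 in endothelial-like to 0.957 in dendritic-like cells, but was 1.37 in endothelial-like cells by equal weight. Dscc1, a part of an alternative clamp loader, passed the count minimum in 4 classes and was called lower in 3, with 32 and 3 UMIs in endothelial-like cells (0.465, and 1.74 by equal weight).

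Nucleotide supply was read from Tyms, which makes thymidylate, and from Rrm1 and Rrm2, the subunits of ribonucleotide reductase. Their sum was 122 and 56.1 CPM in endothelial-like, 91.5 and 38.3 CPM in mesenchyme-like and 141 and 54.5 CPM in glia-like cells. All 3 genes were called lower in those classes and in mural-like cells, and 0 of 3 in either myeloid class. With each cell weighted equally 1 of 3 was called lower in endothelial-like and in mesenchyme-like cells, and the ratio of the sum moved from 0.460 to 0.969 and from 0.419 to 0.834, with Tyms at 1.36 in endothelial-like cells. Rrm2, the subunit whose protein is limited to S phase, was much further apart than Rrm1 in 2 classes. It had 123 and 3 UMIs in endothelial-like cells, a ratio of 0.121 (0.0246 to 0.362), against 0.492 (0.315 to 0.737) for Rrm1, and in glia-like cells 263 and 24 UMIs, a ratio of 0.156 (0.0984 to 0.238), against 0.561 for Rrm1. The 2 subunits were close to each other in mural-like cells, at 0.529 and 0.580. In macrophage or monocyte-like cells Tyms (1.08), Rrm1 (0.802) and Rrm2 (1.02) all had intervals that included 1.

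Chromatin and histone supply held the members with the widest and the narrowest differences. Uhrf1, which guides maintenance DNA methylation behind the fork, had 168 UMIs in control and 1 UMI in knockout endothelial-like cells, a ratio of 0.0295 (0.000743 to 0.167). In mural-like cells it had 65 and 2 UMIs (0.0814), in glia-like cells 202 and 31 (0.263), and it was called lower in all 6 classes. Cdca7, a partner of the remodeller encoded by Hells, was called lower in all 6 classes. Its ratios lay between 0.235 in glia-like and 0.384 in mesenchyme-like cells, with 0.256 in endothelial-like, 0.288 in macrophage or monocyte-like and 0.338 in dendritic-like cells, and each interval lay below 1. Within mesenchyme-like clusters it was at 0.593, 0.870 and 3.84 (258 and 15, 47 and 9, and 2 and 23 UMIs in clusters 6, 8 and 16), and within mural-like ones at 0.191 in cluster 12 and 1.35 (6 and 3 UMIs) in cluster 1. Hells itself was at 0.195 (0.121 to 0.301) in glia-like and 0.226 in endothelial-like cells but at 1.15 in dendritic-like cells. Chaf1b, a subunit of the chromatin assembly factor that deposits histones at the fork, had 78 and 1 UMIs in endothelial-like cells and 66 and 7 in glia-like cells. Casp8ap2, which acts in the processing of histone transcripts, was not called in any class and ranged only from 0.813 to 1.25, with 430 and 74 UMIs in endothelial-like cells.

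Slbp, which binds the stem-loop at the end of replication-dependent histone mRNAs, went against the other members in mesenchyme-like cells. There it had 959 control and 585 knockout UMIs, 124 and 197 CPM, a ratio of 1.59 (1.43 to 1.76), and 1.67 with each cell weighted equally. In endothelial-like cells its ratio was 0.663 (0.495 to 0.873), but 0.949 with each cell weighted equally. By summed UMIs it was 0.691 in mural-like and 0.598 (0.484 to 0.735) in glia-like cells, while both myeloid classes were near 1 (0.959 and 0.932). Slbp alone supplied 10.3% of all member UMIs. Without it, an alternative added after its values were seen, the summed ratio of the members in mesenchyme-like cells was 0.528 in place of 0.686. The level of Slbp also differed among the mesenchyme-like clusters described below, at 193 and 235 CPM in cluster 16 against 106 and 106 CPM in cluster 6.

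Among the repair genes, Rad51ap1, a factor of homologous recombination, was called lower in all 6 classes. It had 149 and 2 UMIs in endothelial-like cells (28.6 and 1.90 CPM), 41 and 1 in mural-like cells and 110 and 20 in glia-like cells, ratios of 0.0665 (0.00799 to 0.245), 0.0645 and 0.311. Exo1, an exonuclease of mismatch and break repair, had 34 UMIs in control and 0 in knockout endothelial-like cells, which makes it at least 2.29-fold lower when the knockout is set to 3 counts over the class. Brip1, a helicase that works with BRCA1, stood at 0.160 in endothelial-like and 0.811 in dendritic-like cells. Usp1, which removes ubiquitin from PCNA and FANCD2, had many UMIs and moderate ratios in every class, 81.1 and 52.3 CPM in endothelial-like cells and 99.8 and 60.3 CPM in glia-like cells. In dendritic-like cells it was among the lower members, with 113 and 35 UMIs and a ratio of 0.471 (0.313 to 0.693). Blm, a RecQ helicase, and Ung, which removes uracil from DNA, were called lower in 2 and 3 classes. Both were near parity in mesenchyme-like cells, at 0.911 and 0.976.

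The G1/S regulators included Ccne1 and Ccne2, the cyclins that start S phase, E2f8, an atypical E2F repressor, and Dtl, which directs the destruction of CDT1 during S phase. Ccne2 had 94 and 2 UMIs in endothelial-like cells (0.105, 0.0126 to 0.392), 42 and 1 in mural-like cells and 134 and 9 in glia-like cells (0.115, 0.0515 to 0.225). The myeloid classes were different, at 0.921 and 0.869 with intervals that included 1. Ccne1 had 27 and 0 UMIs in endothelial-like cells, at least 1.82-fold lower on the 3-count floor. Its ratio was 1.34 (0.971 to 1.85) in mesenchyme-like cells, where 118 and 61 UMIs were the most of any class. Ccne2 was at 0.586 (0.318 to 1.02) there, so the intervals of both cyclins included 1 and give no direction. Within the mesenchyme-like clusters 6, 8 and 16 described below, Ccne1 was at 1.09, 0.841 and 1.10, and each interval included 1. E2f8 had 35 and 0 UMIs in endothelial-like cells, at least 2.35-fold lower, 20 and 0 in mural-like cells, at least 2.52-fold lower, and 45 and 1 in mesenchyme-like cells. Dtl was called lower in 5 classes, with 124 and 17 UMIs in glia-like cells (0.235), and was at 1.08 in dendritic-like cells. Wdr76, a WD repeat protein, had an interval that included 1 in every class.

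S phase transcripts were concentrated in few cells. In the control endothelial-like class the 21 cells richest in members, 5% of the class, held 51.0% of its member UMIs, and their median depth was 28136 UMIs against 9914 for the class, which follows in part from choosing cells by a number of UMIs. In the knockout the richest 7 cells held 29.5%. The same share was 44.8% in control and 16.2% in knockout mesenchyme-like cells, 55.0% and 34.8% in mural-like cells and 49.0% and 40.0% in glia-like cells. A summed ratio therefore weights those cells heavily, and the ratio changed with the weighting. With each cell weighted equally it was 0.631 in endothelial-like, 0.590 in mural-like, 0.900 in mesenchyme-like, 0.478 in glia-like, 0.701 in macrophage or monocyte-like and 0.972 in dendritic-like cells. The members called lower by equal weight numbered 24 of 36 in endothelial-like cells (all genes 17.9%), 25 of 33 in mural-like (13.8%), 16 of 36 in mesenchyme-like (12.6%), 32 of 36 in glia-like (9.68%), 18 of 34 in macrophage or monocyte-like (12.4%) and 7 of 35 in dendritic-like cells (18.3%). By equal weight 1 member each was called higher in endothelial-like (Dscc1, 1.74, all genes 14.9%), mesenchyme-like (Slbp, 1.67, 11.2%) and dendritic-like cells (Rrm1, 1.56, 11.0%), and 0 in mural-like (12.6%), glia-like (11.0%) and macrophage or monocyte-like cells (15.2%). The median cell differed much less, with ratios of 0.917, 0.782, 1.09, 0.805, 0.925 and 1.09 in the same order. Glia-like cells thus kept a ratio below 0.5 by both weightings, while mesenchyme-like and dendritic-like cells came close to 1 by equal weight.

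**Figure D3:**
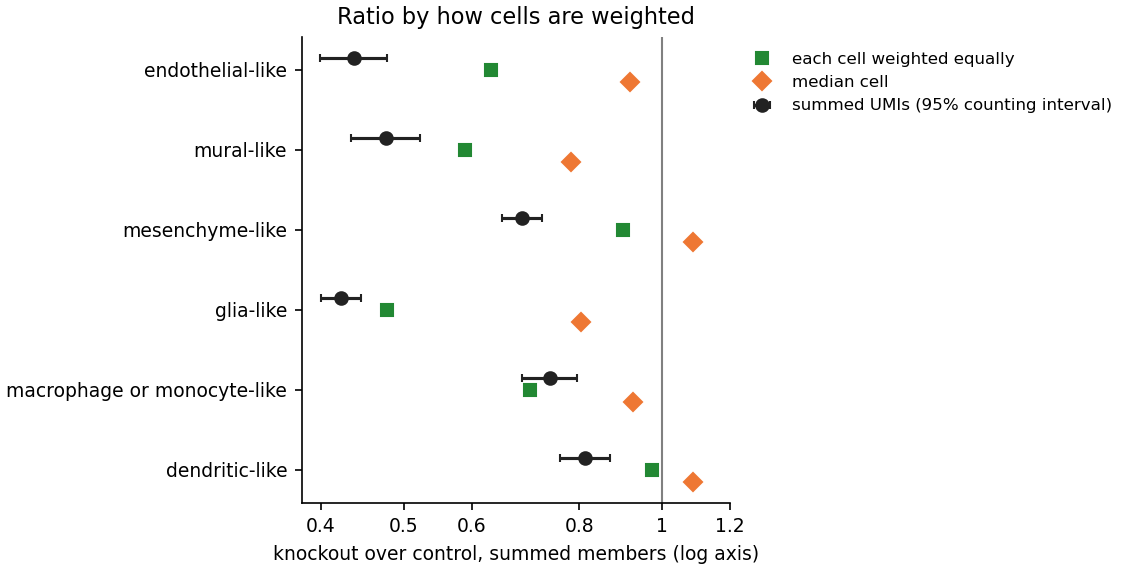
Ratio of knockout over control of the summed members (horizontal log axis) in each gated class by 3 weightings of cells: summed UMIs with exact 95% counting intervals (black circles), each cell weighted equally (green squares) and the median cell (orange diamonds). In 5 of 6 classes the circle is the furthest left; in macrophage or monocyte-like cells the square (0.701) lies left of the circle (0.739).

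Because the libraries differed in depth, each cell was also thinned to 2000 UMIs, and cells with at least 5 member UMIs were counted as rich in S phase transcripts. In endothelial-like cells 37 of 372 control cells were rich (9.95%, Clopper-Pearson 7.10 to 13.4) and 2 of 108 knockout cells (1.85%, 0.225 to 6.53), a ratio of 0.186 (0.0217 to 0.722). Glia-like cells had 47 of 444 (10.6%) and 7 of 358 (1.96%), a ratio of 0.185 (0.0704 to 0.411). A lower share in the knockout was also seen in mesenchyme-like cells, 25 of 546 (4.58%) and 3 of 331 (0.906%, a ratio of 0.198 that was 0.977 for a limit of 3 UMIs and 0.821 after thinning to 4000 UMIs), in mural-like cells, 19 of 250 (7.60%) and 3 of 142 (2.11%), and in macrophage or monocyte-like cells, 21 of 194 (10.8%) and 4 of 152 (2.63%). Dendritic-like cells did not share it, with 16 of 71 (22.5%) and 14 of 66 (21.2%), a ratio of 0.941 (0.425 to 2.06). Which UMIs a thinning keeps is random, and over 20 draws the median ratio was 0.111 in endothelial-like, 0.227 in mural-like, 0.393 in mesenchyme-like, 0.183 in glia-like, 0.460 in macrophage or monocyte-like and 1.04 in dendritic-like cells. The draw given here had the lowest ratio of the 20 in mesenchyme-like (0.198) and macrophage or monocyte-like cells (0.243), so the gap in those classes was typically narrower than shown. Neutrophil-like cells gave 1 of 34 (2.94%) and 3 of 54 (5.56%), at median depths of 5759 and 6374.5 UMIs before thinning. All of these also held at least 5 UMIs of the list for G2 and mitosis, so the class gives no measure of free RNA. Cells with fewer than 2000 UMIs could not be thinned, which dropped 30 endothelial-like cells of the control, 31 of the knockout and up to 28 per library in the other 5 classes. Unthinned, the shares with at least 5 member UMIs were 52.2% and 23.0% in endothelial-like and 50.4% and 22.1% in glia-like cells. The low end of the thinned distribution differed less, since endothelial-like cells with no member UMI made up 34.1% in control and 34.3% in knockout. Glia-like cells shifted at the low end too, with 42.8% and 52.0% at 0.

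**Figure D4:**
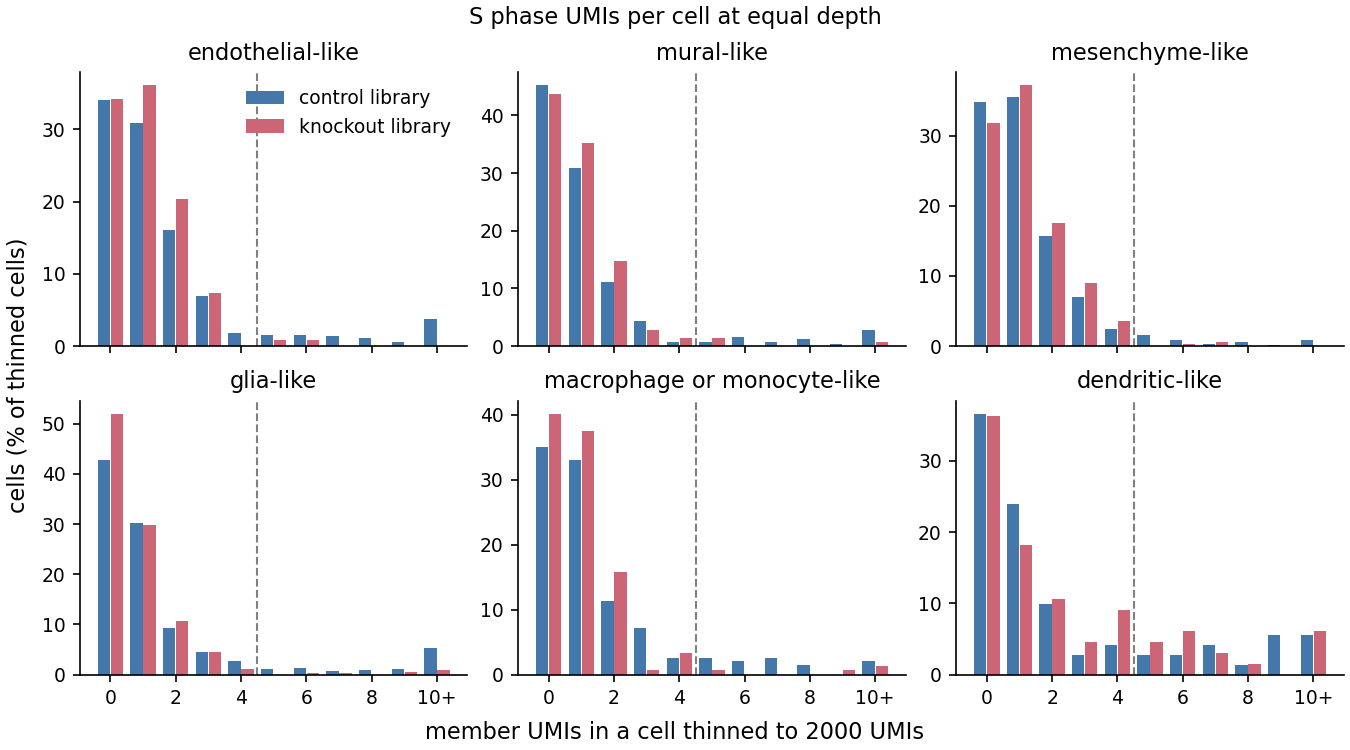
Share of cells (vertical axes, percent of the thinned cells of 1 library, from 0 and scaled per panel) by the number of member UMIs after thinning to 2000 UMIs (horizontal axes, with 10 and more joined), for 6 gated classes, control blue and knockout red. Right of the dashed line, which marks 5 UMIs, control bars dominate in 5 panels (9.95% against 1.85% in endothelial-like cells), while both libraries reach it in dendritic-like cells (22.5% and 21.2%).

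Genes of the next phases of the cycle were compared as a list of 35 G2 and mitosis genes, among them Top2a, the topoisomerase that untangles replicated chromosomes, and Hmgb2, a chromatin protein. All 35 were called lower in endothelial-like cells, and their sum was 2049 and 528 CPM (0.257, 0.236 to 0.280). By equal cell weight 14 of the 35 were called lower and 4 higher there, and the ratio of the sum was 0.763. In mesenchyme-like cells 34 of 35 were called lower with a sum ratio of 0.245 (0.230 to 0.261), against 24 lower, 1 higher and 0.553 by equal weight, and in mural-like cells 31 of 34 with 0.408. In glia-like cells the ratio of the mitotic sum (2191 and 1332 CPM, 0.608, 0.588 to 0.629) was closer to 1 than that of the S phase sum (0.423, 0.400 to 0.446), with 18 of 35 called lower. Top2a stood at 138 and 12.4 CPM in endothelial-like cells (0.0898) and at 235 and 86.4 CPM in glia-like cells (0.368). The mitotic ratio was also the one closer to 1 in macrophage or monocyte-like cells (0.850 against 0.739), but by equal cell weight they were alike there (0.706 and 0.701). By equal cell weight the glial order was the same (0.548 and 0.478), while the endothelial order turned, from 0.257 and 0.438 for the summed UMIs to 0.763 and 0.631. In thinned cells, 22 of the 37 S phase-rich control endothelial-like cells also held at least 5 UMIs of the mitotic list, and 15 did not. Of the 47 such glia-like control cells 33 held both. The knockout classes had too few rich cells for a split, with 1 endothelial-like and 5 glia-like cells rich in both.

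The classes were not made of the same subclusters in the 2 libraries, so the members were also summed within clusters of gated cells, an alternative added after the class values were seen. Cells were clustered on variable genes that included 4 of the 36 members and other cell cycle genes, so a cluster can gather dividing cells. Most control mesenchyme-like cells lay in cluster 8, led by Igfbp5 and Lum, and cluster 6, led by Pcp4 and Vcan, and most knockout ones in cluster 16, led by Igfbp5, Dcn and Sox9. Within cluster 8 the member ratio was 0.954 (0.842 to 1.08) and within cluster 16 1.05 (0.933 to 1.18). Cluster 6 was the one of the 3 with a ratio well below 1, and the members stood there at 1138 and 506 CPM (0.445, 0.380 to 0.517). Endothelial-like cluster 10, led by Aplnr, was at 1147 and 546 CPM (0.476, 0.425 to 0.532), while cluster 14, led by Ptprb and Cldn5, was low in both libraries at 437 and 399 CPM (0.913, 0.743 to 1.12). Control endothelial-like cells also lay in cluster 9, led by Esm1 (64 cells), and cluster 13, led by the cell cycle genes Top2a and Cenpf (17 cells). Too few knockout endothelial-like cells lay in either for a ratio. Over all classes, the 30 control and 6 knockout cells of cluster 13 held the members at 3635 and 2860 CPM. Mural-like cluster 12, with the contractile genes Acta2 and Myh11 among its leading genes, was at 0.443 (0.394 to 0.497), and cluster 1, with Abcc9 and Kcnj8, at 0.761 (0.607 to 0.946).

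Glia-like cells held a cluster led by the cell cycle genes Top2a and Mki67, cluster 11. Its 42 control and 12 knockout cells held the members at 5064 and 3013 CPM, a ratio of 0.595 (0.542 to 0.653), and it was itself defined by cell cycle genes. Outside it, cluster 0, led by Scn7a and Fabp7, was at 681 and 453 CPM (0.665, 0.602 to 0.734) and cluster 4, with Pou3f1 and Mbp among its leading genes, at 0.813 (0.681 to 0.968). Cluster 15, with Ncmap and Mbp among its leading genes, was low in both libraries at 272 and 292 CPM, with a ratio of 1.07 (0.928 to 1.23). The macrophage or monocyte-like class split in 2 directions, with cluster 17, led by Pf4, Mrc1 and C1q genes, at 0.648 (0.549 to 0.763) and the Lyz2 and Ccr2 cluster 2 at 1.15 (1.03 to 1.27), the latter 0.942 by equal weight. Dendritic-like cluster 19, with Clec9a among its leading genes, was at 1.19 (1.08 to 1.33) on 21 and 24 cells, and cluster 5, with Cd209a, at 0.815 (0.712 to 0.931).

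**Figure D5:**
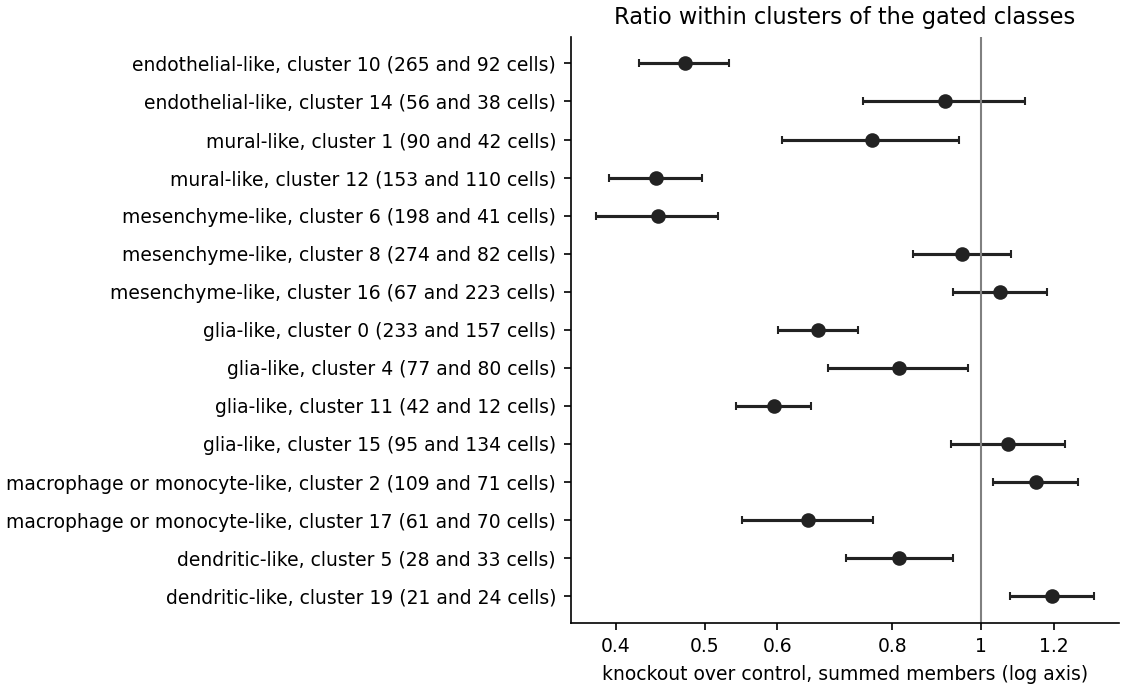
Ratio of knockout over control of the summed members (horizontal log axis) within each cluster of gated cells large enough in both libraries (the smallest has 12 knockout cells), labelled with control and knockout cell numbers; points are ratios of summed UMIs and bars exact 95% counting intervals. Clusters 10, 12, 6 and 11 lie between 0.443 and 0.595, whereas clusters 8, 16 and 15 have intervals that include 1.

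Markers of other cell types differed between the libraries in every class, and their part in the results was not tested. The neutrophil markers were higher in the knockout library throughout. They summed to 25.7 and 70.3 CPM in endothelial-like, 25.4 and 66.2 CPM in mural-like and 27.4 and 77.6 CPM in mesenchyme-like cells. The sums were 26.3 and 66.9 CPM in glia-like, 60.3 and 115 CPM in macrophage or monocyte-like and 18.9 and 45.6 CPM in dendritic-like cells. Glial markers were higher in each class other than glia-like. Some lists fell, such as cartilage markers in mesenchyme-like cells (643 and 325 CPM). In endothelial-like cells the 8 mural markers summed to 69.4 CPM in control (7 of 8 detected) and 297 CPM in knockout (8 of 8), and the 8 glial markers to 62.1 and 138 CPM (8 of 8 in both). Mural-like cells held 1063 CPM of the 8 mesenchyme markers in control (8 of 8) and 2050 CPM in knockout (7 of 8). The share of Y-positive cells was 20.6% and 38.9% in endothelial-like, 10.4% and 44.6% in mural-like and 19.3% and 42.2% in glia-like cells. Among cells with Xist alone the summed ratio was 0.512 in endothelial-like, 0.351 in mural-like and 0.517 in glia-like cells. Among Y-positive cells alone it was 0.314, 0.531 and 0.301 in the same order. The part of the sex mix in the ratios was not tested. In macrophage or monocyte-like cells the same split gave 0.967 and 0.428, the latter on 22 and 32 cells. Median mitochondrial shares were 4.36% and 4.24% in endothelial-like and 5.68% and 7.05% in mesenchyme-like cells.

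Other genes of the replication pathway, from lists that held no member, were called on the same 1.5-fold rule and the same backgrounds. In the order of classes used above, 15.0%, 12%, 13.4%, 9.63%, 11.1% and 18.9% of all compared genes were called lower. The shares called higher were 11.9%, 11.2%, 11.2%, 9.91%, 11.8% and 9.59%. These shares stand beside the counts of every list below. By equal cell weight, where 17.9% and 12.6% of all genes were lower, most lists had fewer lower calls in endothelial-like and mesenchyme-like cells. The counts were 4 of 7 and 2 of 8 for helicase activation, and 11 of 26 and 8 of 26 for polymerases and fork factors. They were 2 of 9 and 1 of 9 for nucleotide synthesis, and 6 of 14 and 6 of 14 for chromatin assembly and histones. Origin recognition and licensing genes went from 3 to 4 of 9 in endothelial-like and from 3 to 2 of 11 in mesenchyme-like cells. By summed UMIs, helicase activation was the list nearest to the members, with 6 of 7 compared genes lower in endothelial-like, 5 of 5 in mural-like, 7 of 8 in mesenchyme-like and 7 of 9 in glia-like cells, 3 of 6 and 1 of 7 in the myeloid classes, and 0 higher in any class. By equal cell weight 2 of its genes were called higher in dendritic-like cells, Topbp1 (1.57) and Dbf4 (1.85), and the ratio of the sum there was 1.41. Topbp1, which helps to load CDC45, was at 55.6 and 28.5 CPM in endothelial-like cells (0.513, 0.340 to 0.748), and Dbf4, the activator of the CDC7 kinase, at 29.1 and 18.1 CPM. Origin recognition and licensing genes differed less, with 3 of 9, 2 of 8, 3 of 11, 5 of 10, 1 of 9 and 4 of 8 lower in the order of classes used above and 1 higher, Orc1 in mesenchyme-like cells (8 and 12 UMIs). Mcmbp, which binds MCM subunits, was at 55.2 and 77.9 CPM in endothelial-like cells (1.41, 1.09 to 1.81), and Orc6 at 51.4 and 44.7 CPM. Polymerases and fork factors had 16 of 26, 13 of 24, 14 of 26, 14 of 26, 4 of 25 and 5 of 26 lower and 1 higher, Pola2 in macrophage or monocyte-like cells. Rfc1, the large subunit of the clamp loader, was at 99.7 and 60.8 CPM and Rnaseh2c, a subunit of a nuclease that removes ribonucleotides, at 60.4 and 39.9 CPM in endothelial-like cells.

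Nucleotide synthesis genes had 6 of 9, 6 of 9, 6 of 9, 7 of 9, 2 of 8 and 0 of 8 lower. Dut, which keeps uracil out of DNA, stood at 56.0 and 22.8 CPM in endothelial-like and 63.5 and 25.0 CPM in glia-like cells (0.393), and Dtymk, thymidylate kinase, at 77.7 and 43.7 CPM in endothelial-like cells. Rrm2b, the p53-regulated subunit of ribonucleotide reductase, was called higher in mural-like cells (1.53) and mesenchyme-like cells (2.08, 1.65 to 2.62), a gene named after its values were seen. Rrm2b was thus higher in the class where Rrm2 was at 0.300. Chromatin assembly and histone genes had 10 of 14, 6 of 13, 9 of 14, 10 of 14, 4 of 14 and 3 of 14 lower, with 0, 1, 0, 1, 2 and 3 higher. In endothelial-like cells 3 were called higher by equal weight, and the ratio of the sum was 0.924 in place of 0.624. H2afz, a histone variant, was at 578 and 413 CPM in endothelial-like cells (0.714, and 1.07 by equal weight) but 793 and 1076 CPM in macrophage or monocyte-like cells (1.36, 1.27 to 1.45), and Dek, a chromatin protein, at 246 and 191 CPM in endothelial-like cells. The higher calls were replication-dependent histone genes except for Asf1a in dendritic-like cells: Hist1h2ap in 4 classes, up to 12.1 (6.97 to 22.6) in macrophage or monocyte-like cells, and Hist1h2ae in both myeloid classes (3.24 and 3.30). Other such genes went the other way. Hist1h3c (92 and 0 UMIs in endothelial-like cells) and Hist1h1e were called lower in every class. Hist1h1b was at 0.0383 in endothelial-like and 0.0914 in glia-like cells. Hist1h2ae itself was called lower in endothelial-like (0.0503), mesenchyme-like (0.199) and glia-like cells (0.391). Transcripts of such histone genes mostly lack a poly(A) tail, so poly(A) capture reads them poorly, and their near-identical copies make the counts of single genes uncertain.

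The E2F, RB and G1/S cyclin list had 6 of 19, 5 of 18, 5 of 19, 10 of 19, 4 of 17 and 5 of 18 lower, with 2, 1, 1, 0, 1 and 2 higher. Of all compared genes 15.0%, 12%, 13.4%, 9.63%, 11.1% and 18.9% were lower in the same order. The shares of all genes called higher were 11.9%, 11.2%, 11.2%, 9.91%, 11.8% and 9.59%. The higher calls of this list were thus near or below those shares. Ccnd1, the D-type cyclin that responds to growth signals, was lower in all 6 classes, from 0.312 (0.236 to 0.405) in mesenchyme-like to 0.661 (0.568 to 0.768) in dendritic-like cells, with 328 and 187 CPM in endothelial-like and 378 and 232 CPM in glia-like cells. Its relative Ccnd2 had ratios above 1 in the vessel wall and mesenchyme, at 175 and 254 CPM in endothelial-like cells (1.45, 1.26 to 1.67), 471 and 559 CPM in mural-like and 407 and 479 CPM in mesenchyme-like cells, none of which passed 1.5-fold. It was called lower in macrophage or monocyte-like (0.441, 0.240 to 0.763) and dendritic-like cells (0.553, 0.394 to 0.764). The higher calls were E2f2 in mesenchyme-like, E2f5 in both myeloid classes, Rb1 in endothelial-like cells (1.56) and Cdk6 in endothelial-like (2.66), mural-like (1.52) and dendritic-like cells (1.95). Cell cycle inhibitors had 1 of 5, 0 of 5, 2 of 6, 1 of 6, 1 of 5 and 0 of 4 lower and 2, 1, 2, 1, 1 and 1 higher. Cdkn1c, which encodes p57, was at 751 and 1013 CPM in mesenchyme-like and 1945 and 1503 CPM in glia-like cells, and Cdkn1b, which encodes p27, at 402 and 559.9 CPM in glia-like cells (1.39, 1.31 to 1.48). Cdkn1a, which encodes p21, was called higher in all 6 classes, at 32.2 and 256 CPM in endothelial-like (7.94, 6.52 to 9.68) and 238 and 491 CPM in glia-like cells (2.07, 1.93 to 2.22).

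Across the 12 sums of 6 classes in 2 libraries, the genes whose log2(CPM + 1) most resembled the summed members, of 11361 genes with at least 200 UMIs, were Rpl36a (Pearson's r 0.958), Ran (0.944), Ncapg2 (0.940), Hmgb2 (0.936), Hist1h3i (0.936), Rps18 (0.935), Rpl12 (0.935), Rpl5 (0.933), Snrpf (0.931) and Pmf1 (0.929). These are a description only, because the 12 points share 2 libraries, their depth and their RNA quality. The list mixed genes of mitotic chromosomes, such as the condensin subunit gene Ncapg2, with ribosomal protein genes. Among the members themselves, each of which is a part of the sum, Pcna had r of 0.958 with it, Slbp 0.386 and Casp8ap2 -0.0916.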

How the data were processed

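The deposited values are raw UMI counts per gene and barcode, a filtered matrix of each library. Per the file headers, the authors made the control matrix with Cell Ranger 5.0.0 and the knockout matrix with Cell Ranger 6.0.1, and per the submitters' processing notes the series used Cell Ranger 6.0.1 and mm10, so the version differs between the genotypes. All columns were matched, with 0 left over. The matrices held 3487 control and 2563 knockout barcodes with 35918862 and 17277162 UMIs.

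A barcode had to hold 500 genes, 1000 UMIs and no more than 10% mitochondrial UMIs. Scrublet in scanpy then marked 33 of 4012 barcodes (0.823%) as doublets, which were removed, so undetected doublets may remain. The removed barcodes of the control and knockout libraries held the members at 672 and 623 CPM.

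A cell was gated to the class with the highest marker score (mean log of counts per 10000) where at least 3 markers were detected and the score was at least 1.5 times the next. Markers came from fixed lists for 14 cell types, and the ratio of 1.5 was set after cell numbers were seen. Of the gated cells 98 control and 62 knockout cells had a ratio under 2, and 53 and 30 ungated cells one from 1.25 up. Leiden clusters (2000 variable genes, 30 components, 15 neighbours, resolution 1, both libraries together without integration) gave 23 clusters.

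UMIs were summed per class and scaled to its total (CPM). Ratios carry exact conditional Poisson intervals and shares Clopper-Pearson intervals. The interval calculation was tested on simulated independent Poisson counts, which is the assumption of the interval. That test checks the arithmetic only and cannot show how far counts that cluster in few cells widen the real spread. A gene needed 20 UMIs over both libraries to be compared, and members with fewer are left grey or unnamed. There is no test and no p-value, since a genotype had 1 library. Pathway genes were named as the 2 with the most UMIs per list in endothelial-like cells, and of 132 pathway symbols 131 were found. The members and lists were chosen with earlier results of these data known. Alternatives were the weighting, gate, filters, doublets, thinning, scaling, richest cells, sex and count minimum. Tools were Python 3.11.15, numpy 2.4.6, scipy 1.17.1, pandas 2.3.3, scanpy 1.11.5, anndata 0.12.19, scikit-learn 1.9.0, igraph 0.11.9 and matplotlib 3.10.9. Proteins were not used here.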

Additional observations from a re-analysis of the deposited data

Results flagged for a closer look

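Slbp was picked out because its ratios point in opposite directions in different classes. By summed UMIs the ratio was 1.59 in mesenchyme-like cells (124 and 197 CPM), against 0.663 in endothelial-like cells (83.2 and 55.1 CPM) and 0.598 in glia-like cells (60.0 and 35.9 CPM). With each cell weighted equally it was 0.949 in endothelial-like cells. The difference between the classes was not tested, because each genotype had 1 library. Within mesenchyme-like clusters the ratio was 1.00 in cluster 6, 1.16 in cluster 8 and 1.22 in cluster 16, and each counting interval included 1. Within endothelial-like clusters it was 0.789 (0.551 to 1.10) in cluster 10 and 0.865 (0.411 to 1.73) in cluster 14. Within glia-like clusters it ranged from 0.372 in cluster 4 to 1.57 in cluster 15.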

How the results depend on the processing

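The summed member ratio stayed below 1 in all 6 classes under all 13 settings run per class, except for dendritic-like cells that were Y-positive (1.02, 14 and 15 cells). Classes are given here as endothelial-like, mural-like, mesenchyme-like, glia-like, macrophage or monocyte-like and dendritic-like. With each cell weighted equally the ratio moved to 0.631, 0.590, 0.900, 0.478 and 0.972 in all but the macrophage class, the median log2 ratio to -0.50 in mesenchyme-like, -1.33 in glia-like and -0.066 in dendritic-like cells, and the members called lower to 16 in mesenchyme-like cells. Thinning to 2000 UMIs moved the ratio to 0.521, 0.580, 0.920 and 0.897 in endothelial-like, mural-like, mesenchyme-like and dendritic-like cells. Thinned medians were -0.98 (13 members compared), -0.54 (7), -0.54 (18) and -0.092 (4) in those classes. Thinned calls numbered 9 of 13, 3 of 7, 9 of 18, 20 of 24, 2 of 8 and 1 of 4, with fewer members left to compare. The share of all genes called was not computed under thinning, nor under the filters, classes and sex splits given below. The counts of calls in those settings therefore have no background beside them and are not read as a result.

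The strict cell filter (5% mitochondrial, 1000 genes) gave ratios of 0.398, 0.633, 0.458, 0.838 and 0.739 in all but mural-like cells, medians of -1.38, -0.22 and -0.44 in the mesenchyme, macrophage and dendritic classes, and 7 and 14 calls in the last 2. A mitochondrial limit of 20% gave 0.731 in mesenchyme-like cells. Leiden classes gave 0.671 with 20 of 36 calls in macrophage or monocyte-like cells, and 0.957 with a median of -0.094 and 3 calls in dendritic-like cells. A stricter gate of 3 times gave 0.654 and a median of -0.78 in macrophage or monocyte-like cells. Without the richest cell of each library the mural median was -1.60. Scaled to the median gene, the dendritic ratio was 0.883, the shift of the median gene there being -0.12. Leaving out Slbp gave 0.528 in mesenchyme-like cells, an alternative added after its values were seen.

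Among Xist-positive cells the ratio was 0.512, 0.351, 0.745, 0.517 and 0.967 in the first 5 classes, with medians of -2.14 (mural), -1.23 (glia) and -0.13 (macrophage), and 7 calls in the macrophage class. Among Y-positive cells it was 0.314, 0.531, 0.562, 0.301, 0.428 and 1.02, with medians of -2.16, -0.82, -1.90 and -1.25 in the endothelial, mural, glia and macrophage classes and 4 of 7, 13 of 18 and 5 of 16 calls in the mural, mesenchyme and dendritic classes.

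For the ratio of shares of cells rich in members, a limit of 10 UMIs gave 0 in endothelial-like and mesenchyme-like cells and thinning to 1000 UMIs gave 0 in mural-like cells, since no knockout cell was left. In mesenchyme-like cells a limit of 3 UMIs gave 0.977 and thinning to 4000 UMIs 0.821, and a limit of 3 UMIs gave 0.424 in glia-like cells. Over 20 thinning draws the ratio ran from 0 to 0.356 in endothelial-like and from 0.117 to 0.276 in glia-like cells.

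Of 148 calls of single members in a class, equal weight reversed 5: Pola1 (1.02), Fen1 (1.37), Dscc1 (1.74) and Tyms (1.36) in endothelial-like and Clspn (1.09) in mesenchyme-like cells. Xist-positive cells reversed Dscc1 (1.10) in endothelial-like and Uhrf1 (1.03) in macrophage or monocyte-like cells, Y-positive cells Mcm4 (1.66) in mural-like cells, and Leiden classes Ccne1 (1.38) in dendritic-like cells. The cause was not tested. No paired analysis was possible because each genotype had 1 library, and for the same reason no library could be left out. Depth limits single members in the knockout, whose endothelial-like and mural-like classes held 529 and 543 member UMIs.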
